A study of Mus musculus with 8 samples.

Results

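The Entpd4 locus of mouse chromosome 14 is held in 6 gene rows, which are Entpd4, Entpd4b and the rows Gm16867, Gm27177, Gm27221 and Gm27176 on the opposite strand. They were taken by name from the 55401 gene rows of the deposited table, within a single window of that chromosome, because their counts were much lower in NG2/CSPG4 knockout than in wild type cells. The knockout against wild type difference of these rows is therefore given as a description, with no test. All 6 rows passed the filter on low counts, which kept 17190 gene rows. RNA was measured in 8 libraries of primary mandibular fibrochondrocytes, which are cells of the mandibular condylar cartilage of the jaw joint, at passage 4.

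The NG2ko group (n = 4) carried a homozygous, LacZ reporter-tagged deletion allele of Cspg4, the gene of the NG2/CSPG4 proteoglycan. The allele was made from the KOMP line Cspg4tm1a(KOMP)Wtsi by crossing to a Cre line, removes Cspg4 in all tissues, and came on a line named as 6N that was backcrossed to C57 BL/6J for a few generations before homozygotes were bred. The WT group (n = 4) came from C57 BL/6J mice bought from the Jackson Laboratory. The labels give 10 to 14 days as the age of the pups of both groups, where the sequencing methods of the study give 14 days, and the cells grew in AMEM with heat inactivated FBS and no other treatment. Because the donors of both groups differ in their breeding history as well as in Cspg4, substrain background and the knockout cannot be told apart in any value below.

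Entpd4 encodes a membrane-bound nucleoside diphosphatase of the Golgi and of lysosomal or autophagic vesicles. Enzymes of this kind hydrolyse UDP, which glycosyltransferases leave behind when they add a sugar from a UDP-sugar. The product, UMP, leaves the Golgi in exchange for new UDP-sugar, so that the hydrolysis keeps glycosylation going, including the building of chondroitin sulfate chains in cartilage. The reference genome, which is that of C57BL/6J, holds the gene as a pair of copies, and the locus is known to vary among mouse strains. An antisense transcript is one read from the strand opposite to another gene, and the roles of the 4 rows on the opposite strand here are not known. Gm27177, Gm27221 and Gm27176 are annotated as antisense RNAs, whereas Gm16867 is annotated with protein-coding and nonsense-mediated decay transcripts and is called antisense below for its position alone.

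The rows fall into pairs with identical or largely shared exons, so the sequences are shown before the counts. In the GRCm38 build used by the table, Entpd4 (ENSMUSG00000095463) lies at chr14:69337174-69367270 on the plus strand, and Entpd4b (ENSMUSG00000022066) at chr14:69555424-69585520, exactly 218250 bases further on. Gm27221 (ENSMUSG00000098270, chr14:69348897-69352259) lies on the minus strand within Entpd4. Gm27176 (ENSMUSG00000099027, chr14:69567147-69570509) lies within Entpd4b with the same offset of 218250 bases. Gm16867 (ENSMUSG00000093954, chr14:69363504-69503362, minus strand) overlaps the 3′ end of Entpd4. Gm27177 (ENSMUSG00000098975, chr14:69582164-69644752, minus strand) overlaps the 3′ end of Entpd4b. Of the 6 rows, 5 have the same coordinates in the GENCODE M21 annotation, and Gm27177 ends further on there, at 69683286.

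**Figure D1:**
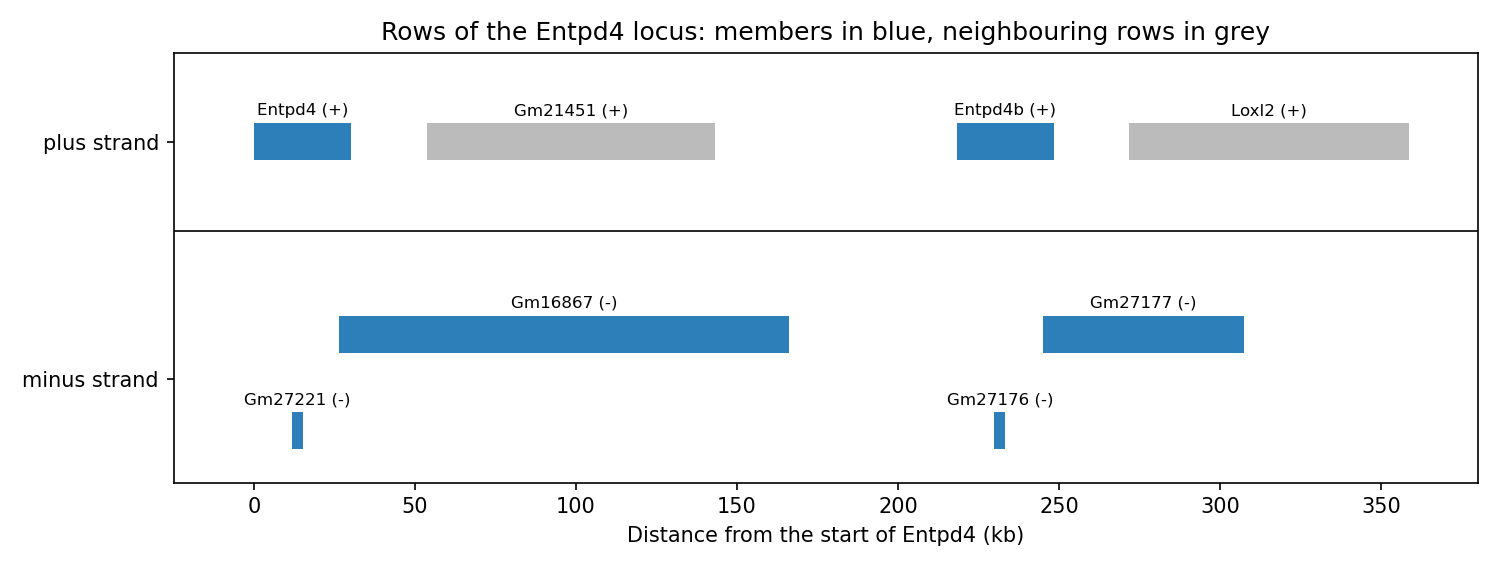
Map of the 6 rows of the Entpd4 locus (blue) and the neighbouring rows Gm21451 and Loxl2 (grey), with the distance from the start of Entpd4 in kb on the horizontal axis and the strand on the vertical axis. Entpd4b starts 218.2 kb after Entpd4, and each of them has 1 short antisense row at the same relative place and 1 long antisense row over its 3′ end, of 139.9 kb and 62.59 kb.

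The longest Entpd4 transcript has 3589 bases in 13 exons, of which 1839 bases are coding, and its Entpd4b counterpart had 0 mismatches to it. Every stretch of 100 bases in the Entpd4 transcripts was also found in Entpd4b transcripts. Likewise, 100% of the 100-base stretches of Gm27177 were found in Gm16867, against 86.4% of those of Gm16867 in Gm27177. Gm27221 and Gm27176 each have 1 annotated transcript of 961 bases in 2 exons, with 0 mismatches between them. A read from one copy therefore cannot be assigned to it by sequence over most or all of these exons, and the split of counts within a pair is uncertain. For this reason the sum of each pair is given beside the single rows.

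The following exons show how the copies match and where the antisense rows meet them. Exon 3 of Entpd4 (chr14:69349073-69349270, plus strand, 198 coding bases) is identical to that of Entpd4b (chr14:69567323-69567520). The capitals mark the 172 bases that are also exon of Gm27221, or of Gm27176 in the second copy, on the opposite strand. Exon 12 (chr14:69364323-69364484 and chr14:69582573-69582734, plus strand, 162 coding bases) is in capitals throughout, since all of it is also exon of Gm16867 or Gm27177 on the opposite strand. The first 150 bases of Gm27221 (chr14:69352110-69352259, minus strand, identical in Gm27176 at chr14:69570360-69570509) and exon 2 of Gm27177 (chr14:69591263-69591371, minus strand, 109 bases, identical to an exon of Gm16867) are in lower case because no Entpd4 exon lies opposite to the Gm27221 stretch and the Gm27177 exon lies beyond the end of Entpd4b.
Entpd4 exon 3: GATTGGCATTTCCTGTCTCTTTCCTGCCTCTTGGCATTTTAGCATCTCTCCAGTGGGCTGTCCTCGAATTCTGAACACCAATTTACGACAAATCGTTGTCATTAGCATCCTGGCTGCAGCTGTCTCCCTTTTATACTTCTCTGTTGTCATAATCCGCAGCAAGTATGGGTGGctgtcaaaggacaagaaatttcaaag
Entpd4 exon 12: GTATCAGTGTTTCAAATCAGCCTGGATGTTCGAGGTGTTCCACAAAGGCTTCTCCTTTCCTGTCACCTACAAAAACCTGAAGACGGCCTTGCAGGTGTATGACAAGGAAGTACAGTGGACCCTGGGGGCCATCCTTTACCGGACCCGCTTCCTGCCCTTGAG
Gm27221 exon 1, first bases: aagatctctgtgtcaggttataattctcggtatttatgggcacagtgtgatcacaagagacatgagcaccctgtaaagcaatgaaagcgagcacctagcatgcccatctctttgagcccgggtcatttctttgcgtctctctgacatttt
Gm27177 exon 2: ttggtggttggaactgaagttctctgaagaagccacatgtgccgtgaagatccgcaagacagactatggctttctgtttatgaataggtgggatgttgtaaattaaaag

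Of the 100-base stretches of Gm16867, 24.3% were the reverse complement of Entpd4 exon sequence, as were 22.1% of those of Gm27177 and 29.1% of those of Gm27221. The libraries were made with a stranded poly(A) kit, but whether the counting used strand is not given in the sources used here. Without strand, reads over these overlaps cannot be told apart between a gene and its antisense row.

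Libraries held 67197864 to 80300263 counts in NG2ko and 60317187 to 83668935 counts in WT. Counts were scaled to CPM (counts in a library relative to its total) with TMM, which corrects for differences in composition between libraries. Cspg4 itself had 13.5, 8.71, 6.93 and 8.33 CPM in NG2ko libraries 1 to 4, against 201 to 241 CPM in WT libraries. Over all genes tested with edgeR's quasi-likelihood test, 937 were higher and 1160 lower in NG2ko at an adjusted p under 0.05, and the median log2 fold change was 0.02. With another test, limma on log2(FPKM + 0.1) of the deposited length-scaled FPKM values, the split was 1200 higher and 913 lower. The cartilage markers Col2a1, Acan, Sox9, Comp and Hapln1 summed to 336 to 363 CPM in NG2ko and 231 to 265 CPM in WT. Matn3 did not pass the filter and is not in this sum. Col2a1, Sox9, Comp and Hapln1 were called higher in NG2ko, and Acan was not called. The markers of the fibrous layer, mostly Col1a1 and Col1a2, summed to 39832 to 48174 CPM in NG2ko and 34866 to 42313 CPM in WT. Among them Cilp, Ogn and Fmod were called higher, while Col1a1, Col1a2 and Prg4 were not called. All 10 of 10 myeloid markers, led by Lyz2, were higher in NG2ko, and their sum was 323 to 376 CPM against 91.0 to 112 CPM in WT, with Spi1 at 0 in the lowest WT library. For the other cell types only markers past the filter were summed. The endothelial markers Pecam1, Kdr and Tek came to at most 1.34 CPM in NG2ko and 1.33 CPM in WT. The skeletal muscle markers Acta1, Ckm and Des came to at most 7.69 CPM in NG2ko and 9.11 CPM in WT. Of the epithelial markers only Cdh1 passed, at no more than 2.90 CPM in NG2ko and 2.23 CPM in WT. Cdh5, Emcn, Myog, Epcam and Krt5, below the filter, reached at most 0.233 CPM in any library, while Krt14 and Myod1 were at 0 in all 8 libraries. The 4 Y-linked genes summed to 188 to 202 CPM in NG2ko and to 0 to 0.286 CPM in WT, while Xist stood at 0.197 to 3.30 CPM in NG2ko and 102 to 210 CPM in WT. Sex, substrain, myeloid cells and the levels of several cartilage and fibrous markers thus differ between the groups together with Cspg4. They cannot be told apart from it, and their part in the values of the locus was not tested. In bulk RNA, fewer cells of a type and less RNA per cell cannot be told apart either.

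Entpd4 was measured at 1823, 1506, 1885 and 1509 counts in the NG2ko libraries, against 2398, 3100, 2781 and 2465 counts in the WT libraries. In CPM these were 22.6, 22.3, 23.2 and 21.5 in NG2ko, against 40.4, 37.6, 39.7 and 38.4 in WT. The NG2ko libraries lay close to each other and every one of them was below every WT library. The mean was 22.4 ± 0.701 CPM in NG2ko and 39.0 ± 1.25 CPM in WT (SD, n = 4 each), so that NG2ko held 57.5% of the WT level and the log2 ratio of the means was -0.80.

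Entpd4b, the second copy, showed the same order of groups at a somewhat higher level. It had 2393, 2302, 2468 and 2281 counts in NG2ko, against 2856, 3677, 3314 and 3361 counts in WT. The CPM were 29.7, 34.1, 30.4 and 32.5 in NG2ko, against 48.1, 44.7, 47.3 and 52.3 in WT, again without overlap. The mean was 31.7 ± 2.03 CPM in NG2ko and 48.1 ± 3.17 CPM in WT (SD, n = 4 each), which is 65.9% of the WT level and a log2 ratio of -0.60. Entpd4 took 39.5% to 43.3% of the counts of the pair in NG2ko and 42.3% to 45.7% in WT, a split that cannot be assigned to one copy or the other given their identical exons.

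Added together, Entpd4 and Entpd4b had 52.3, 56.5, 53.6 and 54.1 CPM in the NG2ko libraries, against 88.5, 82.3, 87.1 and 90.6 CPM in the WT libraries. The highest NG2ko library thus lay well below the lowest WT library. The mean of the pair was 54.1 ± 1.74 CPM in NG2ko and 87.1 ± 3.54 CPM in WT (SD, n = 4 each). That is a 1.61-fold lower level, or 62.1% of WT, with a difference of mean log2 CPM of -0.69 (SE 0.04). The SE describes the spread between libraries and does not allow for the choice of the rows on this contrast.

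**Figure D2:**
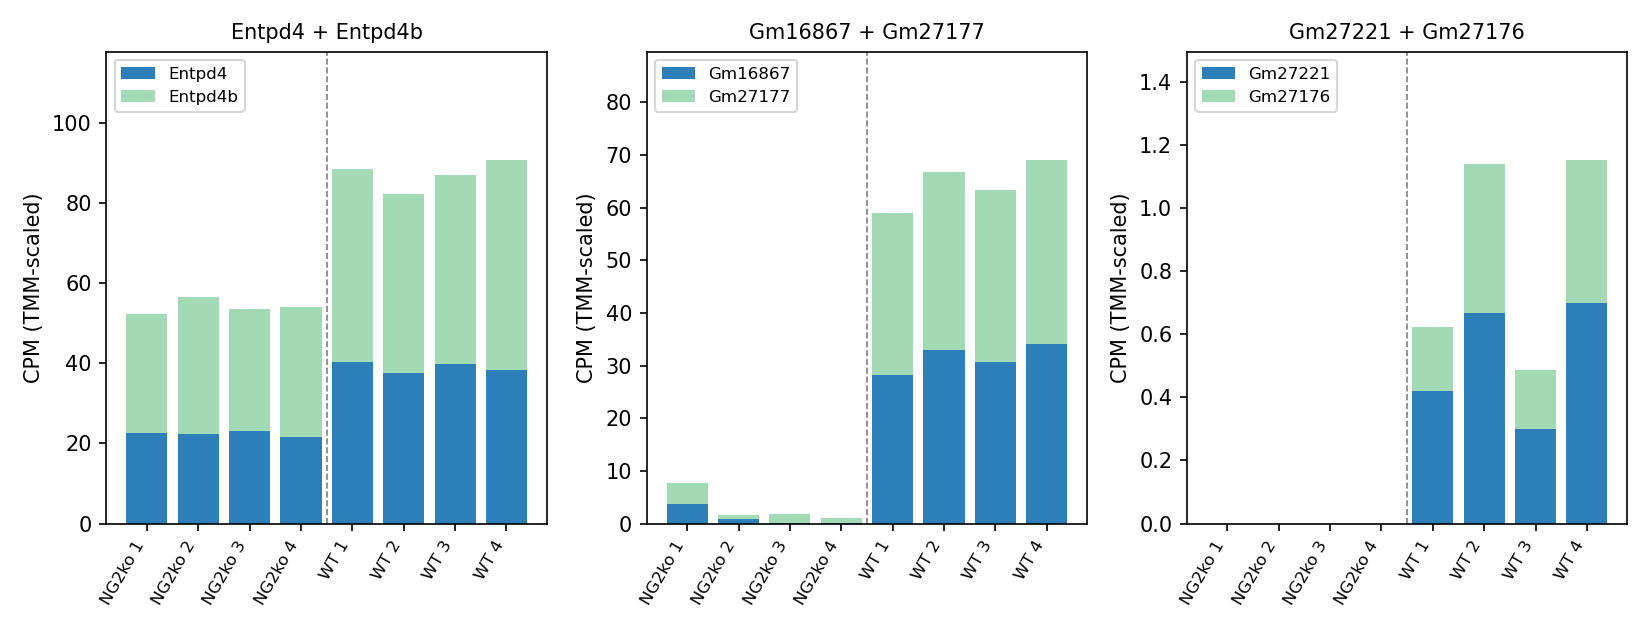
CPM of each row of the locus in every library, stacked within each pair of identical or near-identical copies, with the 4 NG2ko libraries left of the dashed line and the 4 WT libraries right of it in each panel (the vertical scales differ). The Entpd4 pair stands at 52.3 to 56.5 CPM in NG2ko and 82.3 to 90.6 CPM in WT, while the antisense pairs are near or at 0 in NG2ko.

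The long antisense rows showed much larger differences between the groups than the Entpd4 copies. Gm16867 had 295, 55, 5 and 12 counts in NG2ko, against 1674, 2714, 2153 and 2189 counts in WT. In CPM, NG2ko libraries 1 to 4 were at 3.66, 0.816, 0.0616 and 0.171, against 28.2, 33.0, 30.8 and 34.1 in the WT libraries. The mean was 1.18 ± 1.69 CPM in NG2ko and 31.5 ± 2.59 CPM in WT (SD, n = 4 each), or 3.74% of WT, with a log2 ratio of -4.74. The SD in NG2ko exceeded the mean there, as replicate 1 held most of the counts. Without it the NG2ko mean was 0.350 ± 0.407 CPM (SD, n = 3), or 1.11% of WT.

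Gm27177 had 325, 59, 140 and 63 counts in NG2ko, against 1834, 2793, 2279 and 2245 counts in WT. Its CPM were 4.03, 0.875, 1.72 and 0.899 in NG2ko, against 30.9, 33.9, 32.6 and 34.9 in WT. Replicate 1 was again the highest NG2ko library and all of them were below every WT library. The mean was 1.88 ± 1.49 CPM in NG2ko and 33.1 ± 1.75 CPM in WT (SD, n = 4 each), which is 5.69% of WT and a log2 ratio of -4.13. Without replicate 1 the NG2ko mean was 1.17 ± 0.484 CPM (SD, n = 3), or 3.53% of WT. Gm16867 took 47.7% to 49.4% of this pair's counts in WT, a nearly even split, and between 3.45% and 48.2% in NG2ko, where replicates 3 and 4 held few Gm16867 counts.

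The sum of Gm16867 and Gm27177 was 7.69, 1.69, 1.79 and 1.07 CPM in NG2ko, against 59.1, 66.9, 63.3 and 69.0 CPM in WT. NG2ko replicate 1 stood apart, with 620 counts against 75 to 145 in the other NG2ko libraries, but remained far below WT. The mean was 3.06 ± 3.11 CPM in NG2ko and 64.6 ± 4.34 CPM in WT (SD, n = 4 each), a 21.1-fold lower level. Without NG2ko replicate 1 the NG2ko mean was 1.52 ± 0.389 CPM (SD, n = 3), and the level was 42.6-fold lower than in WT. The same library also had the highest Cspg4, at 13.5 CPM against 6.93 to 8.71 CPM in the other NG2ko libraries, and the highest Xist of the group, at 3.30 CPM against 0.197 to 0.430 CPM. The entry of the Nnt gene that had counts in WT only (ENSMUSG00000116207) had 0 counts in it, as in every NG2ko library. The part of these differences in the antisense values was not tested.

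The 2 short antisense rows had no count in any NG2ko library. Gm27221 had 0 counts in each of the 4 NG2ko libraries, against 25, 55, 21 and 45 counts in the WT libraries. Against a floor of 3 counts over the 4 NG2ko libraries together, it was at least 52.8-fold lower in NG2ko. Gm27176 likewise had 0 counts in each NG2ko library, against 12, 39, 13 and 29 counts in WT, and was at least 33.6-fold lower. The pair summed to 0 counts in NG2ko, against 37, 94, 34 and 74 counts in WT, which makes it at least 86.4-fold lower. These floors cover counting error only, and the rows were low in WT too, with means of 0.522 ± 0.194 CPM for Gm27221 and 0.328 ± 0.155 CPM for Gm27176 (SD, n = 4 each). In WT, Gm27221 took 58.5% to 67.6% of the counts of this pair.

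In all 6 rows, every NG2ko library was below every WT library in CPM. Over all genes tested, 10.1% of 17190 showed this separation, and since the rows were chosen on this contrast nothing is read from their count. Summed over the 6 rows, the locus gave 60.02 CPM, 58.2 CPM, 55.4 CPM and 55.2 CPM in NG2ko, against 148 CPM, 150 CPM, 151 CPM and 161 CPM in WT. NG2ko replicate 1 was thus not apart from its group in this sum, to which the Entpd4 copies contributed most. The mean was 57.2 ± 2.33 CPM in NG2ko and 152.5 ± 5.62 CPM in WT (SD, n = 4 each), or 37.5% of WT.

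The balance between the strands differed as well. The counts of Gm16867 and Gm27177 together came to 14.7%, 2.99%, 3.33% and 1.98% of those of Entpd4 and Entpd4b in NG2ko libraries 1 to 4. In WT libraries they came to 66.8%, 81.3%, 72.7% and 76.1%. The mean was 5.75% ± 5.997 in NG2ko and 74.2% ± 6.08 in WT (SD, n = 4 each), so that the long antisense rows were lower in NG2ko by far more than the Entpd4 copies were. Without replicate 1 the NG2ko mean was 2.77% ± 0.704 (SD, n = 3).

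**Figure D3:**
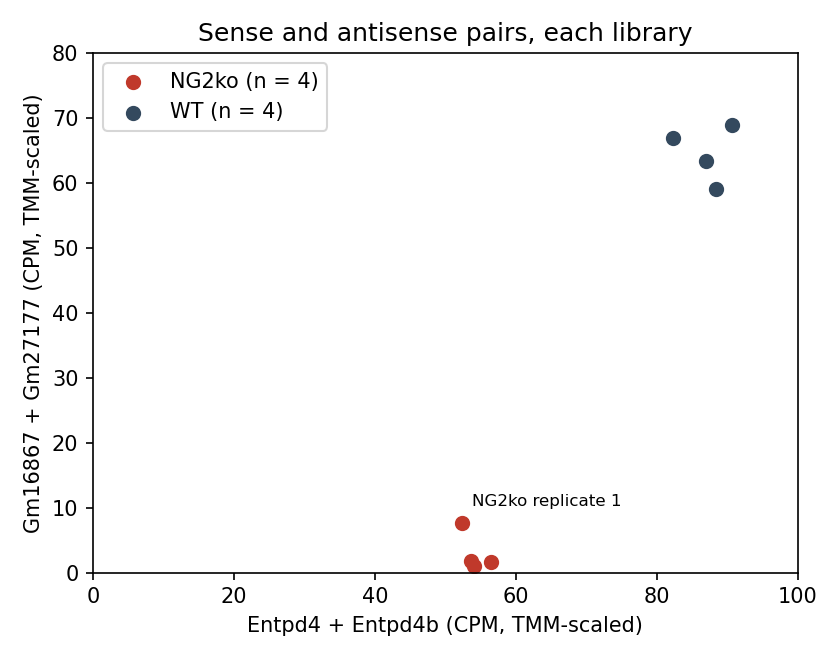
Each library as a point, with the summed CPM of Entpd4 and Entpd4b on the horizontal axis and that of Gm16867 and Gm27177 on the vertical axis, for NG2ko (red, n = 4) and WT (dark, n = 4). The NG2ko libraries lie at 1.07 to 7.69 CPM of the antisense pair and the WT libraries at 59.1 to 69.0 CPM, and NG2ko replicate 1 is the highest of its group.

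Levels can be compared between rows only per length, for which the deposited FPKM were used. Since the order within a pair depends on how reads were split between copies, the pairs were compared by their sums. Entpd4 and Entpd4b together stood at 6.14 ± 0.186 FPKM in NG2ko and 9.62 ± 0.388 FPKM in WT. Gm16867 and Gm27177 together had 0.386 ± 0.388 FPKM in NG2ko and 7.87 ± 0.484 FPKM in WT. Gm27221 and Gm27176 had 0 counts in NG2ko and summed to 0.773 ± 0.317 FPKM in WT (SD, n = 4 each). In both groups the order was thus the Entpd4 pair, the long and the short antisense pair, and in WT the gap between each and the next exceeded their SDs. As single rows, Entpd4 had 2.54 ± 0.0646 FPKM in NG2ko and 4.31 ± 0.166 FPKM in WT, and Entpd4b had 3.60 ± 0.232 FPKM in NG2ko and 5.31 ± 0.332 FPKM in WT. Among the 17190 genes tested, the mean FPKM of Entpd4 was at percentile 46.0 in NG2ko and 57.5 in WT, and that of Entpd4b at 53.0 and 62.1. Gm27177 was at percentile 15.3 in NG2ko and 57.3 in WT, and Gm16867 at 9.38 and 53.8. These ranks of single rows depend on the split of reads between copies, and the pair sums were not ranked.

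In the window from which the rows were picked the table has 19 rows, of which 13 are not among the 6, and 3 of these 13 passed the filter. They are described without a test, since the 6 were picked among them. Loxl2, a lysyl oxidase that crosslinks collagen and lies just after Entpd4b, had 78.2, 79.6, 82.4 and 78.2 CPM in NG2ko, against 113.8, 117.7, 99.6 and 123.7 CPM in WT, also with no overlap. Gm21451, annotated as an unprocessed pseudogene between the Entpd4 copies, shares 84% of its 100-base stretches with Loxl2. It had 1651, 1447, 1789 and 1487 counts in NG2ko, against 0, 1497, 1831 and 1615 counts in WT, so that WT replicate 1 alone was at 0. The sum of Loxl2 and Gm21451 was 98.7, 101.1, 104 and 99.4 CPM in NG2ko, against 113.8, 136, 126 and 149 CPM in WT. Its mean was 100.9 ± 2.54 CPM in NG2ko and 131 ± 14.9 CPM in WT (SD, n = 4 each). R3hcc1, at the far edge of the window, had 40.02 ± 3.78 CPM in NG2ko and 45.9 ± 3.56 CPM in WT, with overlap between the groups.

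To see how far lower levels extended along the chromosome, the genes within 1 Mb of the rows but outside that window were tested. Of 27 such genes, 4 before and 23 after, 2 were called and both were lower in NG2ko, which is 7.41% called against 12.2% of all genes tested. The share depended on the distance taken. Within 0.5 Mb the same 2 were called of 9 tested genes (22.2%), and within 2 Mb 4 of 35 (11.4%), 3 lower and 1 higher. The median log2 fold change of the 27 genes was -0.10, against 0.02 over all genes. Tnfrsf10b, a death receptor for TRAIL, was lower at 107.9 ± 2.78 CPM in NG2ko and 128.0 ± 3.89 CPM in WT (SD, n = 4 each), with a log2 fold change of -0.25 (SE 0.05) and an edgeR adjusted p of 0.00569. Chmp7, an ESCRT protein of nuclear envelope sealing and the nearest tested coding gene after the window, was lower at 49.2 ± 2.49 CPM in NG2ko and 56.7 ± 2.73 CPM in WT, with a log2 fold change of -0.21 (SE 0.06) and an edgeR adjusted p of 0.0460. The call of Chmp7 was lost on leaving out any single library other than NG2ko replicate 2, with edgeR adjusted p up to 0.128. Slc25a37, the mitochondrial iron importer mitoferrin and the nearest coding gene before the window, was not called, at 37.4 ± 2.02 CPM in NG2ko and 41.5 ± 3.16 CPM in WT (edgeR adjusted p = 0.211).

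**Figure D4:**
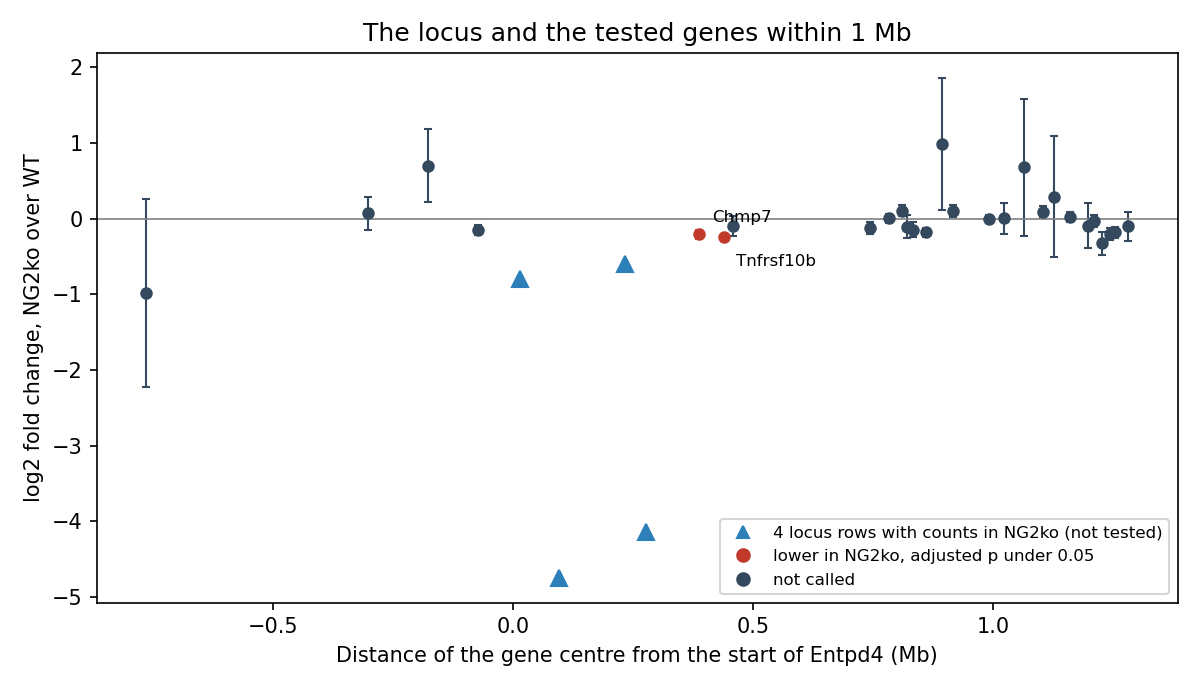
Log2 fold change, NG2ko over WT, against the distance of each gene's centre from the start of Entpd4 in Mb, with standard error bars for the 27 tested genes within 1 Mb, where red points are the 2 called genes. Triangles give the log2 ratio of mean CPM of the 4 locus rows that had counts in NG2ko (-0.80, -0.60, -4.74 and -4.13), which were not tested, and the 2 short antisense rows, with 0 counts in NG2ko, are left out.

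Of the relatives of Entpd4, 3 of 6 tested members of the ENTPD family were called, against 12.2% of all genes tested. Of these 3, 2 were higher and 1 lower, and the median log2 fold change over the list was 0.10. All 3 act at the cell surface. This list and those below were chosen with earlier results of these data known, so nothing is read from the shares called. Entpd2, an ecto-ATPase, was higher at 3.20 ± 0.460 CPM in NG2ko and 1.84 ± 0.246 CPM in WT (log2 fold change 0.80, SE 0.17, edgeR adjusted p = 0.0122). Entpd3 was higher at 4.95 ± 0.587 CPM in NG2ko and 2.93 ± 0.384 CPM in WT (log2 fold change 0.76, SE 0.15, edgeR adjusted p = 0.00784). Entpd1, known as CD39 and found on many leukocytes and endothelial cells, was lower at 0.669 ± 0.198 CPM in NG2ko and 1.47 ± 0.0574 CPM in WT (log2 fold change -1.13, SE 0.26, edgeR adjusted p = 0.0175), while the myeloid markers named above were higher.

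The nucleotidases listed with Entpd4 for the secretory pathway gave no call, 0 of 4, with a median log2 fold change of 0.01. With 12.2% of all genes tested called, a count of 0 among 4 genes is near that share, and nothing is read from it. At an unadjusted p under 0.05 the count was also 0, and none of the 4 was called by DESeq2 or limma-voom. Entpd5, an enzyme of the endoplasmic reticulum that hydrolyses UDP, had 45.8 ± 3.70 CPM in NG2ko and 48.2 ± 2.58 CPM in WT, with an edgeR adjusted p of 0.590. Entpd6 had 14.6 ± 1.38 CPM in NG2ko and 13.7 ± 0.483 CPM in WT, with an edgeR adjusted p of 0.562. Entpd7 had 19.9 ± 1.15 CPM in NG2ko and 18.5 ± 0.628 CPM in WT, with an edgeR adjusted p of 0.387. Cant1, a calcium-dependent nucleotidase of the Golgi that acts on UDP, had 59.2 ± 11.2 CPM in NG2ko and 70.4 ± 8.46 CPM in WT, with an edgeR adjusted p of 0.316. Uggt1 and Uggt2, which reglucosylate misfolded glycoproteins with UDP-glucose, were not called (edgeR adjusted p = 0.934 and 0.447).

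Of 11 genes for UDP-sugar synthesis, 2 were higher and 2 lower, with a median log2 fold change of -0.03. Gfpt2 and Gfpt1, which open the hexosamine pathway, were higher, with log2 fold changes of 0.36 (SE 0.08) and 0.29 (SE 0.08). Ugdh, which makes UDP-glucuronate, was lower with a log2 fold change of -0.22 (SE 0.05). Their edgeR adjusted p were 0.0190, 0.0361 and 0.0229. The call of Gfpt1 was lost on leaving out any single library other than WT replicate 2 (adjusted p up to 0.0918), that of Ugdh without NG2ko replicate 1, 2 or 3 or WT replicate 1 (up to 0.0656), and that of Gfpt2 without NG2ko replicate 1 or 3 or WT replicate 1 (up to 0.0602). Of 9 nucleotide sugar transporters, 1 was lower, namely Slc35b4 with a log2 fold change of -0.19 (edgeR adjusted p = 0.0222), while Slc35b3 at 0.35 and Slc35a3 at 0.31 were not called (adjusted p = 0.0555 and 0.0580). The call of Slc35b4 was lost without NG2ko replicate 1, 3 or 4 or WT replicate 1 (edgeR adjusted p up to 0.0790), while DESeq2 called Slc35b3 and Slc35a3 (adjusted p = 0.0254 and 0.0310), as did edgeR for Slc35b3 without NG2ko replicate 4 and for Slc35a3 without WT replicate 2 (0.0351 and 0.0427). Of 11 enzymes that build chondroitin sulfate chains, 1 was higher, namely the synthase Chsy3 with a log2 fold change of 0.31 (edgeR adjusted p = 0.00801), while Chpf2 at -0.55 and Xylt2 at -0.19 were not called (adjusted p = 0.0688 and 0.158). Chpf2 was called lower by DESeq2 (adjusted p = 0.00283), by limma-voom (0.0420) and by edgeR without NG2ko replicate 3 (0.00633). The share called over all genes tested was 12.2%, 5.45% in the higher and 6.75% in the lower direction.

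Among 7 tested ectonucleotidases, which break down nucleotides outside the cell, 4 were higher and 2 lower, with a median log2 fold change of 0.55. Of these 6 calls, 3 are the surface ENTPD genes named above. The list was chosen with earlier results known, and nothing is read from its share against the 12.2% over all genes tested. Besides the 3 surface ENTPD genes, Alpl, the tissue-nonspecific alkaline phosphatase, was higher at 87.1 ± 7.53 CPM in NG2ko and 29.0 ± 6.54 CPM in WT (log2 fold change 1.58, edgeR adjusted p = 2.7e-04). Nt5e, which releases adenosine from AMP, was higher at 20.2 ± 1.31 CPM in NG2ko and 13.8 ± 1.41 CPM in WT (log2 fold change 0.55, edgeR adjusted p = 0.00317). Enpp1, which makes pyrophosphate from ATP, was lower at 18.4 ± 1.003 CPM in NG2ko and 32.8 ± 0.756 CPM in WT (log2 fold change -0.83, edgeR adjusted p = 3.4e-05).

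**Figure D5:**
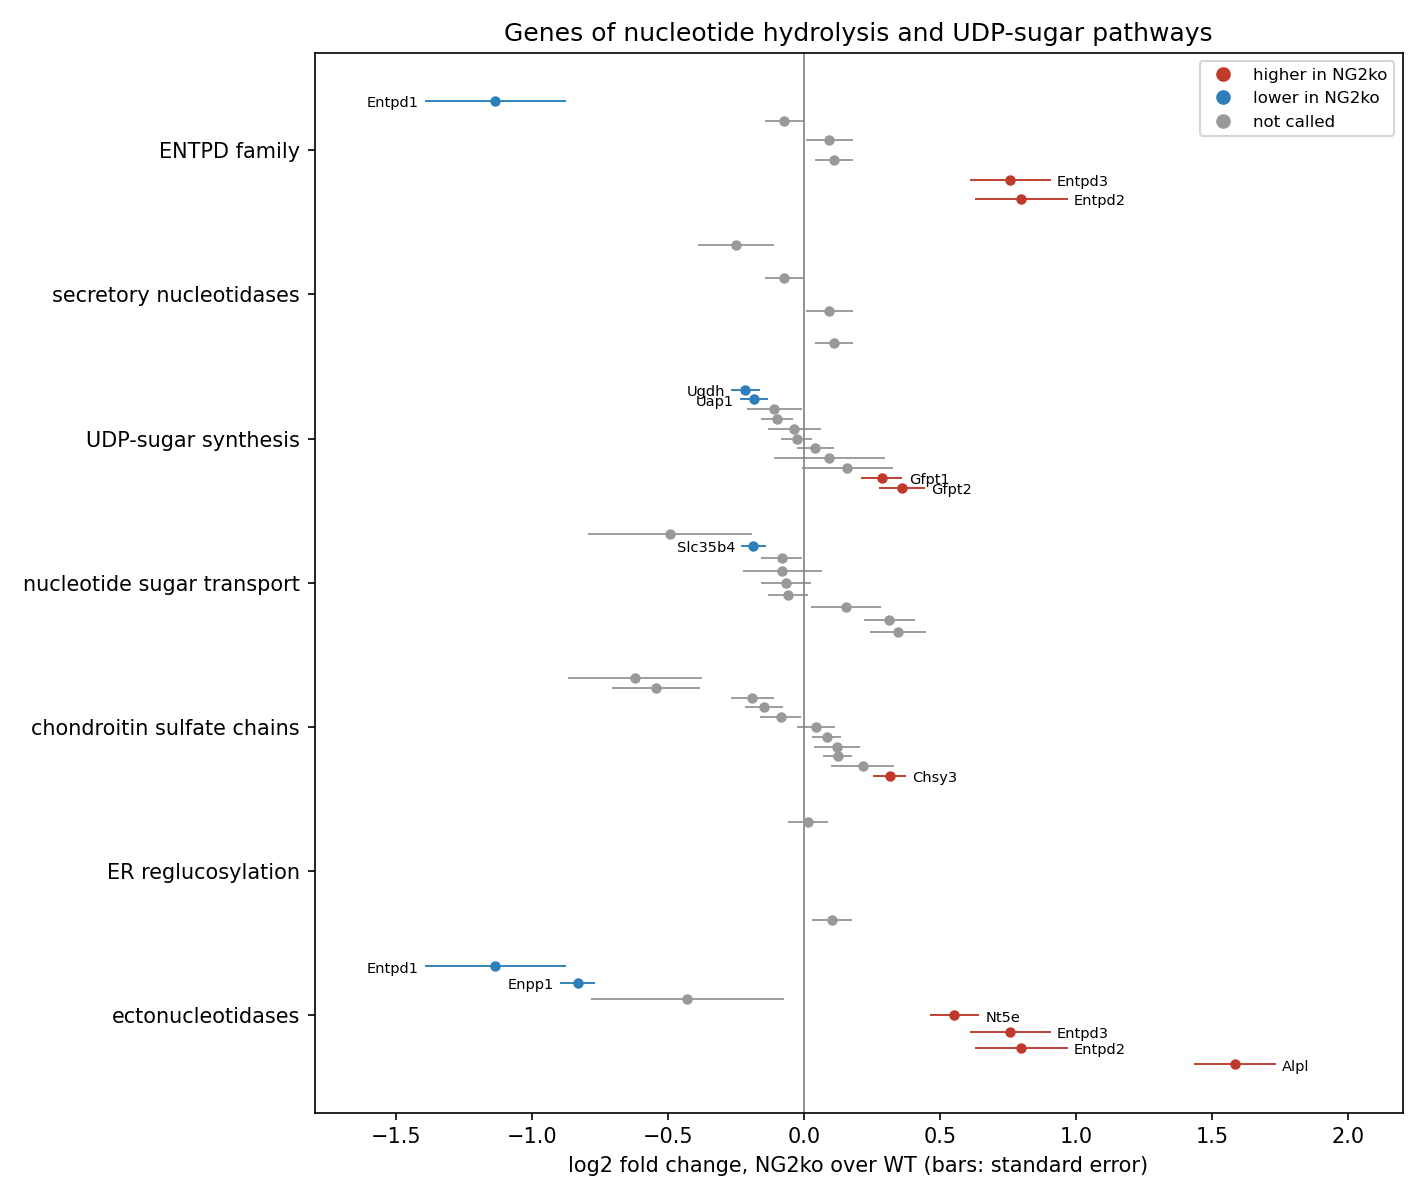
Log2 fold change, NG2ko over WT, on the horizontal axis for each tested gene of 7 lists of related function on the vertical axis, with bars for the standard error, red for genes called higher, blue for genes called lower and grey for genes not called. The secretory nucleotidases and the ER reglucosylation genes have 0 calls, while the ectonucleotidases have 6 of 7. Over all genes tested 12.2% were called. The lists were chosen with earlier results of these data known and share genes, so nothing is read from their shares.

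Because both groups differ in breeding history, genes known to vary between C57BL/6J and C57BL/6N were read beside the locus. Nnt, the mitochondrial transhydrogenase that C57BL/6J carries in a partly deleted form, has a pair of entries in the table. The entry ENSMUSG00000025453 was at 72.1 ± 11.3 CPM in NG2ko and 8.45 ± 5.33 CPM in WT (SD, n = 4 each, log2 fold change 3.10, edgeR adjusted p = 0.0119), and the entry ENSMUSG00000116207 at 0 counts in each NG2ko library, against 1677, 2549, 2056 and 1528 counts in WT (edgeR adjusted p = 6.6e-07). The sum of both was 72.1 ± 11.3 CPM in NG2ko and 36.5 ± 2.45 CPM in WT. Cyfip2, which has a coding variant between the substrains, was not called (1.08 ± 0.312 CPM in NG2ko and 0.829 ± 0.277 CPM in WT, edgeR adjusted p = 0.508), and Crb1 and Nlrp12 did not pass the filter. The NG2ko libraries thus differed from WT at Nnt as well as at the Entpd4 locus, and the part of the substrain in the locus values was not tested.

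The genes whose pattern over the 8 libraries was most like that of Entpd4 were sought among the 13563 genes that averaged 1 CPM or more, by the root mean square difference of log2 CPM after each gene was centred on its own mean. The 5 nearest were Enpp1 (0.0475), Gng2, a G protein gamma subunit (0.0482), the ETS factor Etv5 (0.0585), cyclin D1, Ccnd1 (0.0657), and Cd55, an inhibitor of complement (0.0667). Each was lower in NG2ko, with log2 fold changes between -0.83 and -0.69, as likeness to a pattern set by 2 groups of libraries selects for. Entpd4b was further away, at 0.138, and would have ranked 113. This distance and the order of the nearest genes depend on how reads were split between the identical copies. The sum of the pair was not used here. Gng2 is also on chromosome 14 and starts at 19872559, far from the locus, and the other 4 are on other chromosomes.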

How the data were processed

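Poly(A) RNA of 4 NG2ko and 4 WT cultures was sequenced paired-end from stranded libraries. Per the labels and the study's methods, the authors aligned reads to the Ensembl mouse genome (release 101) with HISAT2 and used StringTie for assembly, then StringTie with edgeR for quantification. Their versions, the counter, its strand setting and the handling of multiply mapped reads are not given in the sources used here. Each library has a column of unnormalized counts and a column of FPKM in the deposited table of 55401 gene rows, and 0 columns of per-sample values were left unused.

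After TMM scaling and the filterByExpr filter (count minimum 10), NG2ko was compared with WT in edgeR 4.0.16 under R 4.3.3. The quasi-likelihood model had a robust prior and a genotype term alone, with p-values adjusted by Benjamini-Hochberg over 17190 genes. Standard errors are the log2 fold change over the root of the F statistic. The p-values measure the spread between these 4 and 4 libraries. Simulated counts were used to test the scripts. Alternatives used DESeq2 1.42.0, limma 3.58.1 with voom or on log2(FPKM + 0.1) and log2(FPKM + 1), other filters and scaling, a replicate block, and each library left out. Fold bounds against a group at 0 use a floor of 3 counts. Sequence sharing was read from GENCODE M21 transcripts (GRCm38), which may differ from the authors' models. Figures used matplotlib 3.10.9 under Python 3.11.15.

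The 6 rows and all gene lists were chosen with earlier results of these data known. Genes are named by rule. They are each row of the locus, Cspg4, every tested gene of the ENTPD, secretory nucleotidase, reglucosylation and substrain lists, the 3 genes of smallest p of each other list, the nearest coding genes and called genes of the flanks, and the 5 genes most like Entpd4. Loxl2, Gm21451, R3hcc1, Gm38378, Gm37513, Gm37847 and the markers were named after their values were seen.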

Additional observations from a re-analysis of the deposited data

Results flagged for a closer look

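Within each group of 4 libraries, the gap between an extreme library and its nearest neighbour was set against the range of the group, for the values named in the report. Of 88 such groups 6 exceeded Dixon's limit of 0.829, or 6.82%, where chance gives about 5%. The sum of Gm16867 and Gm27177 in NG2ko replicate 1 was 7.69 CPM, against 1.07 to 1.79 CPM in the other NG2ko libraries. Entpd3 in NG2ko replicate 4 was 4.08 CPM, against 5.15 to 5.34 CPM in the others of that group. Chmp7 was 52.9 CPM in NG2ko replicate 2, against 47.5 to 48.2 CPM in the other NG2ko libraries, and 60.8 CPM in WT replicate 4, against 55.0 to 55.6 CPM in the other WT libraries. Ccnd1 was 557.7 CPM in NG2ko replicate 3, against 535.6 to 537.6 CPM in the other NG2ko libraries, and 901 CPM in WT replicate 4, against 864 to 871 CPM in the other WT libraries.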

How the results depend on the processing

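The sum of the 6 rows kept its direction under every alternative run, with log2 ratios of -1.47 to -1.36 against -1.42 as reported, and -1.44 to -1.39 with 1 library left out. Because the rows were chosen for their lower counts in these same libraries, the kept direction is no support for the difference. The Entpd4 pair ranged from -0.71 to -0.57 and the Gm16867 pair from -5.41 to -2.71 on the log2 scale. The Gm27221 pair, at 0 counts in NG2ko, ranged from -9.14 to -0.81. The weaker ends came from FPKM with a pseudocount of 1, which compresses low values by construction. Adding the copies of each pair to 1 row was chosen after the data were seen. Leaving out 1 library gave 1454 to 1976 called genes, 613 to 900 of them higher, 1 or 2 called genes in the flanks and 9 to 15 in the 8 lists of function and substrain, against 14 with all libraries. The lists gave 9 without NG2ko replicate 1 or without WT replicate 1. The flanks had 1 call instead of 2 with no filter on low counts and with FPKM at either pseudocount, since Chmp7 was lost. They had 2 calls of 9 genes at 0.5 Mb either side and 4 calls of 35 genes at 2 Mb either side. Of 32 named genes outside the locus, 20 were called. Many of them were named for a small p, for a call or for likeness to Entpd4. This count therefore cannot be set against the 12.2% called over all genes tested. Of the 20, 15 kept their call under all alternatives run. The exceptions were Chmp7, Gfpt1, Slc35b4, Ugdh and Gfpt2, and calls were gained for Slc35b3, Slc35a3 and Chpf2, by DESeq2 among others. FPKM at either pseudocount also ended the calls of Ugdh and Slc35b4 (limma adjusted p of 0.0619 to 0.0749). Uggt1, not called, ranged from -0.049 to 0.054 on leaving out 1 library and turned to -0.049, -0.0028 and -0.019 without NG2ko replicate 2, WT replicate 3 and WT replicate 4.

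The labels number the libraries 1 to 4 in both groups, but same-numbered libraries correlated at only 0.00099 to 0.044 in their deviations, 3 of 4 best with their own number. With the replicate block, 1815 genes were called and 1 in the flanks, against 2097 and 2 without it, and among named genes Slc35b4 lost its call (edgeR adjusted p = 0.0561), Chmp7 lost its call (0.0832) and Slc35b3 gained one (0.0499).

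Identical copies limit what single rows show, and the short antisense rows rest on 12 to 55 counts per WT library. Genotype, sex, substrain, myeloid RNA and the differing cartilage and fibrous marker levels cannot be told apart.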

Other observations

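A further pair of minus-strand rows of the locus, whose annotation awaits experimental evidence, Gm38378 (chr14:69395504-69397771) and Gm37513 (chr14:69613779-69616046), did not pass the filter. Gm38378 had 0 counts in every NG2ko library, against 2, 15, 9 and 7 counts in WT. Gm37513 had 0 counts in every NG2ko library, against 6, 16, 10 and 7 counts in WT. Against a floor of 3 counts over the 4 NG2ko libraries together, they were at least 11.9-fold and 14.1-fold lower in NG2ko. Gm37847 (chr14:69502600-69504096), a plus-strand row of the same kind, had 9, 7, 10 and 11 counts in NG2ko, against 0, 4, 8 and 10 counts in WT. WT replicate 1, at 0 here, was also the library with 0 counts of Gm21451.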
